A study of Mus musculus with 2 samples.

Results

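The genes described here are 9 structural genes of central myelin, Mbp, Mog, Mag, Mobp, Cnp, Opalin, Mal, Cldn11 and Ermn, chosen by symbol among the 32285 genes of the files. Their messages were counted as unique molecular identifiers (UMIs), 1 per captured molecule, in single cells from the thalamus of 2 mice of the C57BL/6J strain, wildtype and 2 months old, with 1 droplet library per mouse. The mice were untreated and form 1 group, so every comparison sets cell groups of the same 2 animals against each other. The libraries held 163418203 UMIs in 7889 barcodes (mouse 1) and 204839993 UMIs in 12107 barcodes (mouse 2), of which 6185 and 9176 cells were kept, with medians of 17998 and 14759 UMIs per cell. The libraries had 36 barcodes in common, 15 of them among kept cells. The enzymatic dissociation selects which cells survive, so numbers of cells are not read as tissue proportions.

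Oligodendrocytes wrap axons in many layers of compacted membrane, and the proteins of that membrane are made in bulk only after a precursor has left the cell cycle and committed to differentiation. Mbp encodes myelin basic protein, which holds the cytoplasmic faces of the membrane together, and Mobp encodes another basic protein of compact myelin. Cnp encodes a phosphodiesterase of the cytoplasmic channels of myelin, and Ermn a cytoskeletal protein of oligodendrocytes called ermin. Mag is the adhesion protein of the membrane next to the axon, Mog a surface protein of the outermost layer, Cldn11 the tight junction protein of the sheath, Mal a proteolipid of membrane sorting, and Opalin a membrane glycoprotein of oligodendrocytes. Pdgfra, the receptor that keeps precursors dividing, marks the first stage. Gpr17 is a receptor that is on only for a short time, and Enpp6 a choline phosphodiesterase of newly forming oligodendrocytes. Both were taken as marks of the committed stage.

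RefSeq start sites gave upstream sequence (GRCm38.p6) for 8 of the 9, all but Mbp, and 4 of these are shown because they contrast genes that had risen early with genes that had risen late in the comparison of stages. The sequences run 5′ to 3′ on the gene's strand and end at the base before the annotated gene, and capitals mark letters of the binding motifs searched on both strands. These were CTGGCAC and CTGGTAC for MYRF, the transcription factor that drives myelin genes, and ACAAAG and ACAATG for SOX10, the lineage factor it acts with. CTTTGT is ACAAAG and GTACCAG is CTGGTAC read on the other strand.
Cnp (chr11:100574689-100574903, plus strand): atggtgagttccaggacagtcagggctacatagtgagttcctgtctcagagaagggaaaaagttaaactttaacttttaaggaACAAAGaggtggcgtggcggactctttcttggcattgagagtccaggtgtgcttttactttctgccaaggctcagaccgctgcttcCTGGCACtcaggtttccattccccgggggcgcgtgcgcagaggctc
Mag (chr7:30914874-30915113, minus strand): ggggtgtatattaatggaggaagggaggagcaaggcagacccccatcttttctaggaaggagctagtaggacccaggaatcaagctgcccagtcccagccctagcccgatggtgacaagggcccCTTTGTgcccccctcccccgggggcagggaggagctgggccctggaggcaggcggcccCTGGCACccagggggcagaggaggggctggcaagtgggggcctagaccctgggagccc
Mog (chr17:37023399-37023648, minus strand): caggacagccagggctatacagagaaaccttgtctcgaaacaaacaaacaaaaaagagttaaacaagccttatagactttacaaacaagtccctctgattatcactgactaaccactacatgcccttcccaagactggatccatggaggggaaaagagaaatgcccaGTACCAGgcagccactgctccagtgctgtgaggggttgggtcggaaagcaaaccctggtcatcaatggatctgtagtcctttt
Mal (chr2:127656696-127656945, minus strand): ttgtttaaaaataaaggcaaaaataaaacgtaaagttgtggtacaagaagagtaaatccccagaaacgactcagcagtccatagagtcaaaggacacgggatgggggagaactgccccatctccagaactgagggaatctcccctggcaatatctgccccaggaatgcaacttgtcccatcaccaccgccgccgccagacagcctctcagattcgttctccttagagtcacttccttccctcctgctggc

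The MYRF letters stood in the 250 bases upstream of a start of 3 of the 8 members (Cnp, Mag and Mog), and in 5.93% of 32851 mouse promoter windows of the same length. The SOX10 letters stood in 5 of 8 (Cnp, Mag, Mobp, Opalin and Ermn), against 25.2% of all windows. The CAGCTG letters of the OLIG2 E-box stood in none of the 8, against 13% of all windows. The Mal window shown, that of Cldn11 and a further window of Mag (chr7:30914322-30914571) held none of these letters. A member was counted where any of its windows held the letters, while the share over all counted each window, so the 2 are not in the same unit. The windows shown were picked by the stage results of their genes and do not stand for all 8. Cldn11, among the early members, held none, while Mobp, Opalin and Ermn, among the late ones, held the SOX10 letters. Letter matches describe the sequence and say nothing of binding in these cells.

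The 9 genes lie apart in the genome (GRCm38, GENCODE vM21 annotation). Mbp is on chromosome 18 (82475146 to 82585637), Mog on 17 (37010743 to 37023398), Mag on 7 (30899176 to 30914873), Mobp on 9 (120149707 to 120181484), Cnp on 11 (100574904 to 100591729), Opalin on 19 (41061710 to 41077113), Cldn11 on 3 (31149920 to 31164324), and Mal and Ermn on 2 (127633226 to 127656695 and 58045113 to 58052864). Cnp overlaps the opposite-strand gene Dnajc7 and Ermn overlaps Galnt5, and whether strand was used in counting is not given here, so reads of those overlaps cannot be told apart.

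Stages were taken from UMIs of the 3 gate genes within clusters of oligodendrocyte lineage cells. Cells with at least 5 UMIs of Gpr17 or Enpp6 were committed, other cells with at least 3 UMIs of Pdgfra were precursors, and the remaining cells of oligodendrocyte-like clusters were mature. This gave 75 precursor, 575 committed and 1501 mature cells in mouse 1, and 542, 1285 and 2572 in mouse 2. The committed gate joined cells of different kinds. Cells over the Gpr17 gate alone (65 in mouse 1 and 434 in mouse 2) lay in the precursor-like cluster in 90.8% and 93.8% of cases, and their Pdgfra level was 1012 and 1070 CPM, the count per 1000000 UMIs of the summed cells. Cells over the Enpp6 gate alone (468 and 736) lay in oligodendrocyte-like clusters in 99.8% and 99.7% of cases. Cells over both gates (42 and 115), called double-gated here, lay in the cluster named from committed precursor markers in 97.6% and 100% of cases, with Enpp6 at 1532 and 1503 CPM, Gpr17 at 1079 and 1360 CPM and Pdgfra at 2.78 and 20.5 CPM. The levels of Pdgfra, Gpr17 and Enpp6 follow from the gates, and all 3 were among the variable genes used for clustering, so gates and clusters do not check each other. The 5 groups are given in the order precursor, Gpr17-only, double-gated, Enpp6-only and mature. Every contrast with double-gated cells was added after the overlap of the gates had been seen. These include double-gated over precursor and mature over double-gated cells, the 2 steps described below. Gpr17-only over precursor and mature over Enpp6-only cells were added then too. The order is one of gates and clusters, and no cell was followed over time. Of the cells just inside the Pdgfra gate, with 3 or 4 UMIs, none lay in an oligodendrocyte-like cluster and their Mbp level was 213 and 85.1 CPM. Of those just outside it, with 1 or 2 UMIs, 21 of 29 and 64 of 75 did, and their Mbp level was 4192 and 4227 CPM.

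All 9 members were higher in mature cells than in precursors, and each was at 2.93% or less of its mature level in precursors of either mouse. Mal had 5716 CPM (mouse 1) and 4572 CPM (mouse 2) in mature cells, against 39.2 and 25.4 CPM in precursors. Mbp had 4292 and 4338 CPM in mature cells, against 116 and 74.7 CPM in precursors. Opalin had 1004 and 1041 CPM in mature cells, against 22.2 and 5.66 CPM in precursors. The groups did not overlap for any member, but with 2 mice per group this is a weak mark, and its share over all genes was not counted. Mature levels of the other 6 ran between 1218 CPM (Ermn, mouse 2) and 2902 CPM (Cnp, mouse 1), against 11.2 CPM (Ermn, mouse 2) to 79.7 CPM (Cnp, mouse 2) in precursors.

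In edgeR's quasi-likelihood test on counts summed per mouse and class, with Benjamini-Hochberg adjustment over 16797 genes, the log2 fold change of mature over precursor cells was 7.75 ± 0.76 (SE, n = 2 mice) for Mal, 7.01 ± 0.70 for Opalin, 6.97 ± 0.55 for Ermn, 6.79 ± 0.49 for Mag, 6.75 ± 0.55 for Mog, 6.57 ± 0.65 for Cldn11, 6.39 ± 0.48 for Mobp, 5.94 ± 0.44 for Mbp and 5.54 ± 0.45 for Cnp. The adjusted p of the 9 ran from 8.2e-09 (Mag) to 3.61e-07 (Opalin). A gene is called where the adjusted p is under 0.05 and the groups differ by 1 or more on the log2 scale, and by this rule 14.4% of all genes tested were called higher in mature cells. The median log2 fold change of the 9 was 6.75, beside 0.03 over all genes tested. With TMM scaling 2423 genes were called higher and 3488 lower. With DESeq2 size factors these were 1830 and 3971, with the median of all genes at -0.21, and with library size only 1567 and 4315, with the median at -0.36. The 9 members were called higher under each of the 3 scalings.

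Over all cells of the committed gate as a whole, the 9 members were again higher than in precursors, by 4.87 ± 0.65 (Opalin) to 6.65 ± 0.54 (Ermn) on the log2 scale, where 11% of genes were called higher. With gates of 1 UMI for Pdgfra and 3 for Gpr17 and Enpp6, 7 of the 9 were called, where 898 of 16777 genes were called higher. Mal was at 0.99 and Opalin at 0.34 there. With the committed gate kept inside the committed cluster 7 were called, with Ermn at 0.68 and Mal at 0.43. Between mature cells and the whole committed gate, Opalin alone among the 9 was called, higher by 2.14 ± 0.54 in mature cells (adjusted p = 0.0121), where 0.756% of genes were called higher and 9.64% lower. It had 1004 and 1041 CPM in mature cells, against 394 and 199 CPM in committed cells. The Opalin call was lost without the mouse in the model and when cells over both the precursor and the committed gates were left out. Most committed cells by this gate lay in oligodendrocyte-like clusters, and the groups by gate are described next.

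**Figure D1:**
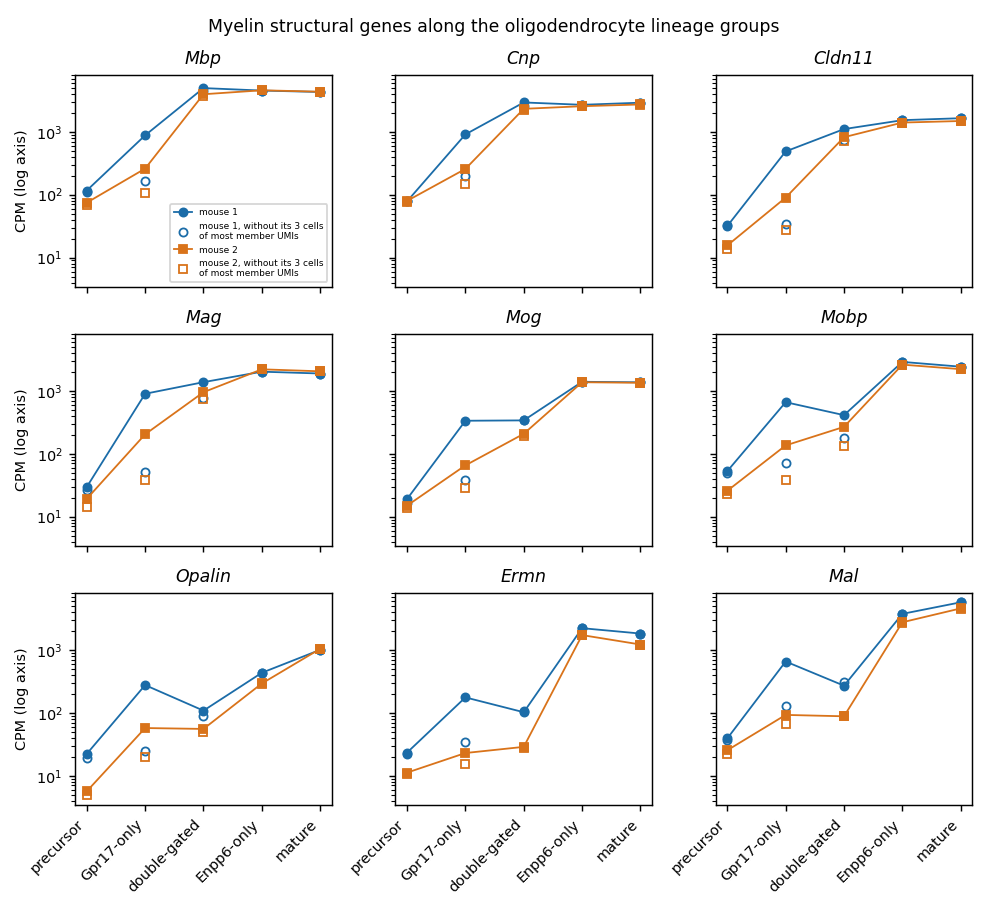
CPM (log axis) of each of the 9 members in the 5 lineage groups of mouse 1 (circles) and mouse 2 (squares), with open symbols for the same sum without the 3 cells of most member UMIs. Mbp and Cnp are near their mature level in double-gated cells of both mice, while Ermn and Mal are still below 6% of it there. In Gpr17-only cells the open symbols lie far below the filled ones.

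Double-gated cells divided the members. Mbp and Cnp were at 85.2% to 115% of their mature level, Cldn11 and Mag at 46.6% to 72.9%, and Mog, Mobp, Opalin, Ermn and Mal at 24.8% or less. Mbp had 4951 and 3953 CPM in double-gated cells, against 116 and 74.7 CPM in precursors, and Cnp had 2928 and 2317 CPM in double-gated cells, against 78.4 and 79.7 CPM in precursors. Mal had 270 and 88.1 CPM in double-gated cells, against 39.2 and 25.4 CPM in precursors. Ermn had 102 and 28.8 CPM in double-gated cells, against 23.3 and 11.2 CPM in precursors. Over all cells outside the lineage the mean of the 2 mice was 107 CPM for Mal and 28.2 CPM for Ermn. For these 2 genes the double-gated level of mouse 2 was near that outside the lineage, and that of mouse 1 was above it. Double-gated cells were not tested against cells outside the lineage.

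All 9 were called higher in double-gated cells than in precursors, where 14.1% of 15136 genes were. For Mal and Ermn the call is against precursors only and does not set them above the level outside the lineage. The log2 fold changes were large for Mag (5.75 ± 0.58), Mbp (5.74 ± 0.50), Cldn11 (5.62 ± 0.59) and Cnp (5.17 ± 0.49), intermediate for Mog (4.09 ± 0.56), Mobp (3.35 ± 0.51) and Opalin (3.04 ± 0.56), and smallest for Mal (2.41 ± 0.56) and Ermn (1.91 ± 0.57). The adjusted p was 1.43e-05 for Mbp and 0.0209 for Ermn. With gates of 10 UMIs for Gpr17 and Enpp6 and 5 for Pdgfra, 6 of the 9 were called, without Mal, Ermn and Opalin. With gates of 3 UMIs for Gpr17 and Enpp6 and 1 for Pdgfra, Mbp (1.92) and Cnp (1.87) alone were called, and 5 members turned negative, Mal to -2.44, Ermn to -2.28, Opalin to -0.93, Mobp to -0.15 and Mog to -0.0143. The lower Pdgfra gate also admits cells with 1 or 2 UMIs of it. Of such cells outside the main committed gate, 21 of 29 and 64 of 75 lay in oligodendrocyte-like clusters. The Mal level of these 29 and 75 cells was 4892 and 4848 CPM, and their part in the reversal was not tested. With no replicate block Ermn was not called. The double-gated sums also hold some cells with much higher member counts. Double-gated cells also had more UMIs per cell, with medians of 40717 and 26859, against 11756 and 13872 in precursors, and the part of depth was not tested. In mouse 1 the 3 cells with most member UMIs gave 30.3% of them, and without these Mobp was at 176 CPM in place of 411. Of the 42 double-gated cells of mouse 1, 1 lay in an oligodendrocyte-like cluster. Whether the calls of Mal, Ermn and Opalin rest on a few cells was not tested.

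The 5 members with the smallest differences in that comparison were called in the next. Mature cells were higher than double-gated cells for Mal (log2 fold change 5.45 ± 0.61, adjusted p = 3.96e-05), Ermn (5.15 ± 0.59, 4.32e-05), Opalin (4.17 ± 0.51, 7.03e-05), Mobp (3.19 ± 0.49, 0.000373) and Mog (2.74 ± 0.49, 0.00117). The call was not reached by Mag (1.17 ± 0.46, adjusted p = 0.069), Cldn11 (1.09 ± 0.47, 0.0948), Cnp (0.47 ± 0.41, 0.399) and Mbp (0.34 ± 0.41, 0.554). Of all genes, 12.5% were called higher in mature cells here. The 5 called members were called under each alternative with a test, and Cldn11 (2 alternatives) and Mag (2 alternatives) crossed the threshold in some. With library size as the only scaling, Mbp differed by -0.02, the median of all genes moved to -0.27, against 0.08 with TMM scaling, and 1285 genes were called higher and 3072 lower, against 1899 and 2291.

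**Figure D2:**
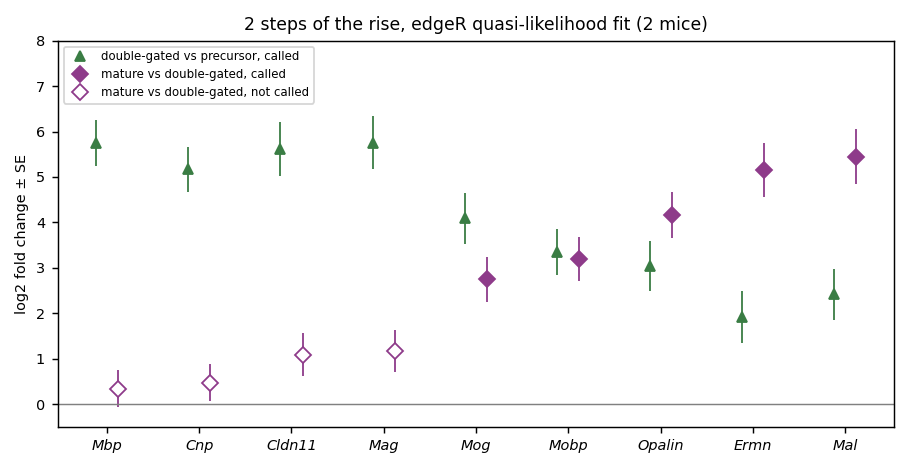
Log2 fold change ± SE (edgeR, n = 2 mice) of each member for double-gated over precursor cells (triangles) and for mature over double-gated cells (diamonds, open where not called). For Mbp, at the left, the first value is 5.74 and the second 0.34, and for Mal, at the right, they are 2.41 and 5.45. The 2 values of a member share the double-gated sums and are not independent.

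As a share of the mature level of the same mouse, double-gated cells of mouse 1 and mouse 2 held 115% and 91.1% for Mbp and 101% and 85.2% for Cnp. The share was 72.9% and 46.6% for Mag and 67.2% and 55.3% for Cldn11. It was 24.8% and 15.4% for Mog, 17.0% and 12.1% for Mobp and 10.8% and 5.32% for Opalin. It was lowest for Ermn (5.61% and 2.36%) and Mal (4.72% and 1.93%). The order of the 9 was the same in both mice except that Mag stood above Cldn11 in mouse 1 and below it in mouse 2. Ermn and Mal, at neighbouring places in the order, differed by less than the spread between the mice. In Enpp6-only cells, 3 of the 5 low members were above their mature level, with Mog at 102% and 102%, Mobp at 119% and 118% and Ermn at 122% and 141% of mature. Opalin was at 43.2% and 28.1% and Mal at 65.5% and 60.2%. Nearly all Enpp6-only cells lay in oligodendrocyte-like clusters. Whether they come before mature cells or are a kind of mature cell was not tested.

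**Figure D3:**
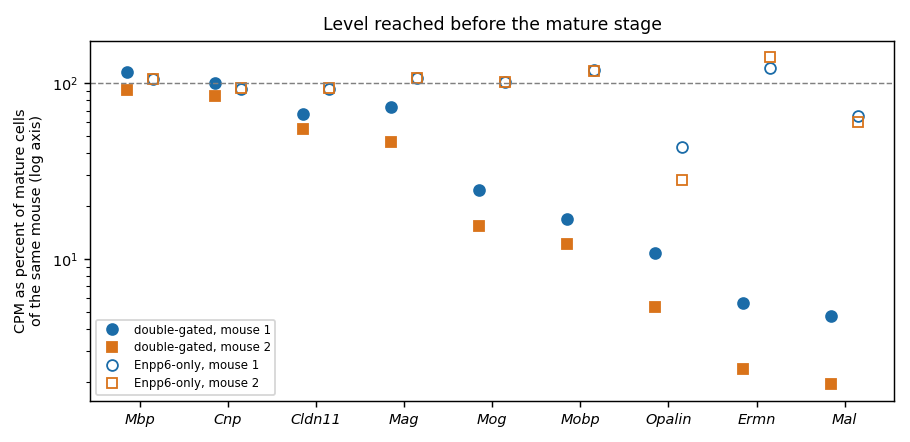
CPM of each member as a percent of mature cells of the same mouse (log axis) in double-gated cells (filled) and Enpp6-only cells (open), circles for mouse 1 and squares for mouse 2. In double-gated cells the members run from 115% (Mbp, mouse 1) to 1.93% (Mal, mouse 2). In Enpp6-only cells Opalin and Mal are below 70% in both mice and the other 7 are above 90%.

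Between Enpp6-only and double-gated cells the test called the same 5 members higher as in the second step, Ermn (5.50 ± 0.60), Mal (4.69 ± 0.59), Mobp (3.37 ± 0.49), Mog (2.70 ± 0.49) and Opalin (2.50 ± 0.47), where 12.6% of genes were called higher (1908 higher and 2466 lower, and 1418 and 3036 with library size only). The comparison of Enpp6-only with double-gated cells shares the double-gated sums with both steps, so it is not independent of them. Between mature and Enpp6-only cells none of the 9 was called, where 1.62% of genes were called higher and 2.07% lower. Opalin came closest, at 1.67 ± 0.45 (adjusted p = 0.069), and it was called in 5 of the alternatives. Enpp6-only cells were higher than Gpr17-only cells for all 9, where 18% of genes were called higher (2721 higher and 3557 lower, and 1567 and 4464 with library size only), by 1.89 ± 0.46 (Opalin) to 5.31 ± 0.59 (Ermn).

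Gpr17-only cells had more member UMIs than precursors in the sums, but a few cells carried them. The 3 cells with most member UMIs gave 88.0% of them in mouse 1 and 59.4% in mouse 2. Summed over the 9 members, the level was 5275 and 1184 CPM in Gpr17-only cells, and 745 and 490 CPM without those 3 cells, against 413 and 272 CPM in precursors. Mag was the only member called between Gpr17-only and precursor cells (4.33 ± 0.55, adjusted p = 0.0364), where 0.033% of genes were called higher and 0.00661% lower. It was at 899 and 204 CPM in Gpr17-only cells, and 52.0 and 38.4 CPM without those 3 cells, against 29.7 and 19.2 CPM in precursors. The Mag call was lost in 5 alternatives, while DESeq2's Wald test called all 9, where 106 genes were called in all. Gpr17-only cells of the precursor-like cluster held 1286 and 1853 of the 7531 and 9080 member UMIs of all Gpr17-only cells. Their level was 1068 and 259 CPM, and 331 and 233 CPM without the 3 cells of most member UMIs among them. Most member UMIs of Gpr17-only cells thus lay in the few cells of committed precursor-like and oligodendrocyte-like clusters. What the cells of most member UMIs are beyond that was not tested. In double-gated against Gpr17-only cells, Mbp (3.29 ± 0.45), Cnp (2.48 ± 0.44), Cldn11 (2.18 ± 0.50) and Mag (1.42 ± 0.47) were called higher, where 10.3% of genes were (1558 higher and 2221 lower, and 1151 and 2636 with library size only). Mag was not called with library size only (1.23), with no replicate block (1.28) or at Leiden resolution 2 (1.33).

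The members were also compared cell by cell. The mark used was the 10th percentile of mature cells of the same mouse, in counts per 10000. For Cnp, 30 of 42 double-gated cells of mouse 1 (71.4%, exact 95% interval from 55.4 to 84.3) and 102 of 115 in mouse 2 (88.7%, 81.4 to 93.8) reached it, and for Mbp 28 of 42 (66.7%, 50.5 to 80.4) and 57 of 115 (49.6%, 40.1 to 59.0). For Mag 12 of 42 and 28 of 115 did, and for Cldn11 12 of 42 and 38 of 115. For Mobp 3 of 42 and 5 of 115 reached it, for Ermn 1 and 4, for Mog 1 and 3, for Opalin 1 and 6 and for Mal 1 and 1. Among precursors no cell did for 6 of the members in either mouse, and 1 or 2 of 542 cells of mouse 2 did for Mag, Cldn11 and Cnp. Such intervals cover counting error only.

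Among mature cells Opalin varied most of the 9 in mouse 1, and Ermn and Opalin varied most in mouse 2. In mouse 1, Mbp varied 1.67-fold between the 10th and the 90th percentile of mature cells, Ermn 1.99-fold and Opalin 3.02-fold, and in mouse 2 these ratios were 2.14, 6.16 and 6.05. Mouse 2 had a median of 13094 UMIs per mature cell and mouse 1 of 23625, and 5.33% (Ermn), 5.02% (Opalin) and 3.62% (Cnp) of mature cells of mouse 2 had no UMI of the gene, against at most 0.6% (Opalin) in mouse 1. The part of depth in the wider ratios of mouse 2 was not tested.

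Clusters of the oligodendrocyte-like cells, formed without the members among the variable genes and here with gated cells included, held different members at different levels. Opalin had 99.0 and 102 CPM in cluster 10, which had the highest level of Klk6 (930 and 566 CPM), a serine protease of some oligodendrocytes. It had 484 and 582 CPM in cluster 4. In the clusters with the highest level of Ptgds, prostaglandin D synthase, it had 1013 CPM (cluster 0, mouse 1) and 1075 CPM (cluster 1, mouse 2); cluster 0 held 1484 cells of mouse 1 and 75 of mouse 2, and cluster 1 held 24 and 1480. Mal had 2640 and 2251 CPM in cluster 10, 3921 and 3353 in cluster 4, 5739 in cluster 0 of mouse 1 and 4652 in cluster 1 of mouse 2, but 3164 in the 24 cells of cluster 1 of mouse 1. Ermn ran the other way in the larger sums, with 2556 and 1871 CPM in cluster 10, 2139 and 1463 in cluster 4, 1818 in cluster 0 of mouse 1 and 1165 in cluster 1 of mouse 2. Mbp stayed within 4262 to 4572 CPM over the same sums. Cluster 10 also had Enpp6 at 565 and 548 CPM, against 33.1 CPM in cluster 0 of mouse 1 and 25.5 CPM in cluster 1 of mouse 2. These are descriptions of clusters made from the same cells and carry no test.

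**Figure D4:**
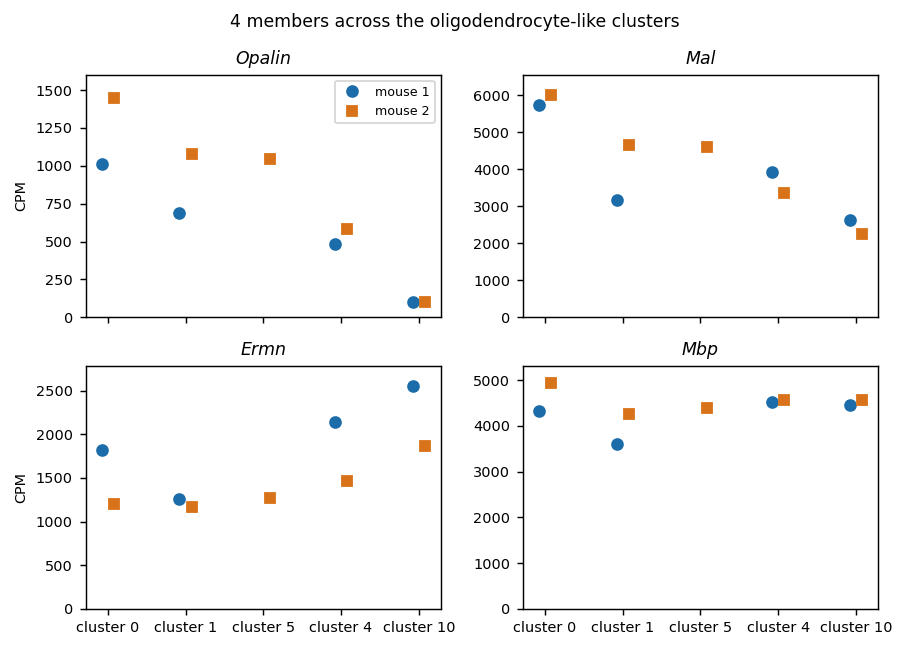
CPM of Opalin, Mal, Ermn and Mbp in the 5 oligodendrocyte-like clusters, one symbol per mouse (circles mouse 1, squares mouse 2) where the cluster held at least 20 cells of it. Opalin and Mal are lowest in cluster 10 in both mice, Ermn is highest there in both mice, and Mbp lies between 3611 and 4946 CPM.

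Outside the lineage the 9 members summed to between 279 CPM (fibroblast-like cells, mouse 2) and 1602 CPM (border macrophage-like cells, mouse 1) by class. The 9 members summed to 23054 CPM in mouse 1 and 20973 CPM in mouse 2 in mature cells and to 413 and 272 CPM in precursors, against 590 and 414 CPM over 9 other classes, each named by its markers with "-like". Mature cells were higher than the mean of these classes for all 9, by 5.13 ± 0.19 (Mbp) to 6.11 ± 0.29 (Opalin) on the log2 scale, where 17% of genes were called higher (2859 higher and 2097 lower, and 2123 and 2736 with library size only). In neuron-like cells, which make no myelin, the 9 members ran from 17.4 CPM (Opalin) to 132 CPM (Mbp) in mouse 1 and from 10.5 to 101 CPM in mouse 2. No member was called higher in precursors than in the other classes. Ermn (-1.15 ± 0.39), Mal (-1.70 ± 0.51), Mag (-1.09 ± 0.34) and Mog (-1.01 ± 0.39) were called lower in precursors, where 9.42% of genes were, and 20.9% of genes were called higher. These 4 calls depended on the gates and on doublet removal. There were 0 when doublets were kept (1495 of 17101 genes called lower) or with higher gates (1515 of 16803). With gates of 1 UMI for Pdgfra and 3 for the committed genes, all 9 were called higher, where 3381 of 16777 genes were.

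Of mature cells, 99.9% and 99.9% had a UMI of Mbp, of precursors 76.0% and 61.3%, and of all cells outside the lineage 78.6% and 60.7%, at median depths of 23625 and 13094, 11756 and 13872, and 13849 and 12303 UMIs. After thinning each cell to 1000 UMIs these shares were 98.1% and 97.8% in mature cells (95% exact intervals 97.3 to 98.8 and 97.1 to 98.3), 8.0% and 5.90% in precursors (2.99 to 16.6 and 4.07 to 8.23) and 12.4% and 8.37% outside the lineage (11.3 to 13.5 and 7.49 to 9.32). For Opalin the thinned shares were 62.2% and 58.5% in mature cells, 1.33% and 0.738% in precursors and 2.26% and 1.24% outside the lineage. For these 2 genes the thinned share of precursors was below that outside the lineage in both mice, with overlapping 95% intervals in each case, and it is not read as expression. Cnp, by CPM of the sums and not by thinned share, was at 78.4 and 79.7 CPM in precursors against 81.8 and 60.8 CPM outside the lineage. Precursors were thus the lower group in mouse 1 and the higher in mouse 2.

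The mix of members outside the lineage was not that of mature cells, and it differed between classes. Mbp made up 18.6% and 20.7% of member UMIs in mature cells and 26.2% and 27.5% in neuron-like, 27.0% and 26.4% in astrocyte-like, 28.1% and 28.0% in microglia-like and 43.0% and 44.4% in blood-like cells. Mal made up 24.8% and 21.8% in mature cells and 16.4% and 14.2% in neuron-like cells. Shares of member UMIs count molecules at the captured end and are not corrected for anything else.

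Mal stood out in endothelial-like cells. It had 549 and 404 CPM there, against 34.0 to 113 CPM in the astrocyte-, blood-, microglia-, neuron-, pericyte- and fibroblast-like sums. In border macrophage-like cells it had 404 and 43.7 CPM (37.4 and 31.0 without the 3 cells of most member UMIs), and in smooth muscle-like cells 268 and 132 CPM (48.7 and 65.2 without them). In endothelial-like cells it made up 57.2% and 52.0% of member UMIs. Its log2 fold change over the mean of the other classes outside the lineage was 2.54 ± 0.35 (adjusted p = 1.37e-05), where 13.3% of genes were called higher in endothelial-like cells. It stayed called under each alternative with a test, with log2 fold changes down to 1.41 (doublets kept). After thinning, 40.7% and 30.7% of endothelial-like cells had a Mal UMI (95% exact intervals 36.7 to 44.7 and 26.5 to 35.1), against 4.91% and 4.17% of neuron-like cells, at medians of 12930 and 5008 UMIs in endothelial-like and 64111 and 44148 in neuron-like cells. Without the 3 cells of most member UMIs Mal was still at 530 and 388 CPM, while the other 8 members were between 14.4 and 116 CPM. The unnamed cluster that mixed endothelial and pericyte markers had 404 and 319 CPM of Mal. No other member was called in endothelial-like cells. MAL is known as a sorting protein of polarised membranes, also outside the nervous system.

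In all, 11 of 81 pairs of member and class were called higher than in the other classes outside the lineage and 2 lower, beside 15.7% and 8.16% of all pairs of gene and class. Beside Mal in endothelial-like cells, 6 of the 11 were in smooth muscle-like cells (Ermn, Mag, Mobp, Cnp, Mog and Opalin; 11.4% of genes called higher there) and 4 in border macrophage-like cells (Ermn, Mal, Cldn11 and Mog; 12.9%). Few cells carried these. The 3 cells with most member UMIs gave 83.5% and 55.2% of them in the 42 and 203 smooth muscle-like cells, and 76.0% and 25.2% in the 102 and 40 border macrophage-like cells. Without those 3 cells the 9 members summed to 302 and 442 CPM in smooth muscle-like cells, in place of 1567 and 939, and to 421 and 286 CPM in border macrophage-like cells, in place of 1602 and 346. In border macrophage-like cells the rise was in mouse 1 alone, and Opalin had 0 counts in mouse 2, which allows up to 9.36 CPM (3 counts of the sum). By class, the share of all genes called higher was 23.2% in astrocyte-like, 13.6% in blood-like, 18.2% in microglia-like, 28.1% in neuron-like, 10.5% in pericyte-like and 10% in fibroblast-like cells, and no member was called higher in these. The share called lower was 13% in astrocyte-like, 8.74% in blood-like, 6.13% in border macrophage-like, 7.44% in endothelial-like, 8.89% in microglia-like, 12.5% in neuron-like, 5.08% in pericyte-like and 7.42% in smooth muscle-like cells, and no member was called lower in these. The 2 lower calls were Cnp (-1.25 ± 0.37) and Mbp (-1.04 ± 0.32) in fibroblast-like cells (4.27% of genes called lower), from 21 and 47 cells, and neither was called with library size only. Unnamed cluster 27 of mouse 1 had a median of 1224 UMIs per cell and 6025 CPM for the 9 members together, and it entered no test.

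**Figure D5:**
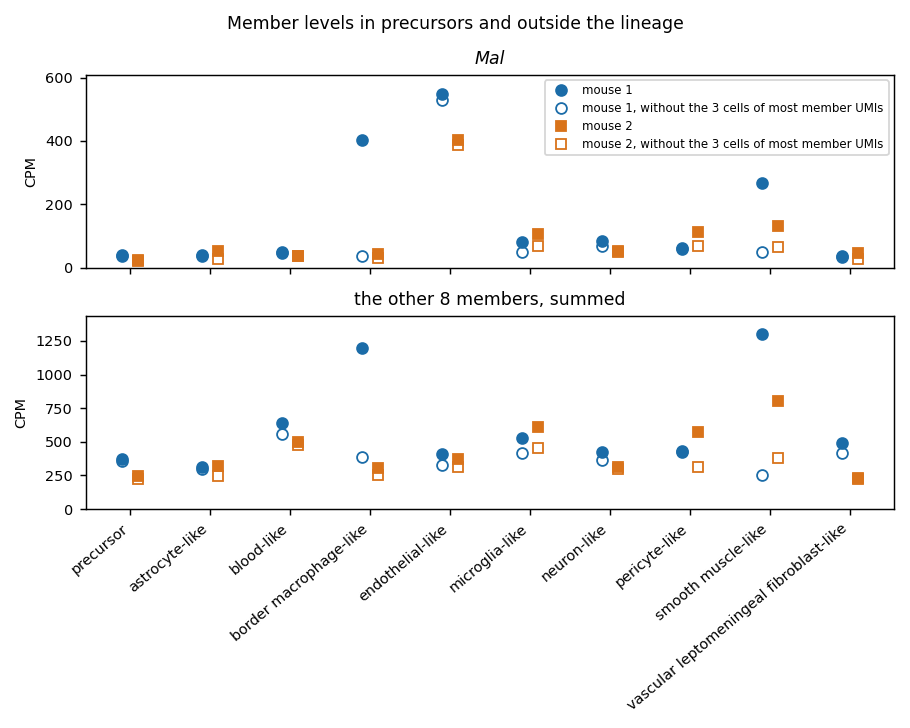
CPM of Mal (upper panel) and of the other 8 members summed (lower panel) in precursors and 9 classes outside the lineage, circles for mouse 1 and squares for mouse 2, open where the 3 cells of most member UMIs are left out. Endothelial-like cells keep 530 and 388 CPM of Mal without those cells, while the high sums of border macrophage-like and smooth muscle-like cells drop to the level of the other classes.

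Other genes of myelin were tested beside the members, from lists chosen with them. Of 24 other genes of the sheath and paranode, 20 were called higher in mature cells than in precursors and none lower, with a median log2 fold change of 3.11 beside 0.03 over all genes, of which 14.4% were called higher and 20.8% lower. In double-gated cells over precursors 16 were higher and none lower, beside 14.1% and 17% of all genes, and in mature over double-gated cells 13 were higher and 4 lower, beside 12.5% and 15.1%. The 4 that were lower were Cd9, Nfasc, Bcas1 and Sirt2. Car2, carbonic anhydrase, behaved like the late members, with 52.9 and 27.8 CPM in precursors, 133 and 51.0 CPM in double-gated cells and 3005 and 2416 CPM in mature cells. Its call lay in mature over double-gated cells (5.42 ± 0.54, adjusted p = 1.62e-05) and not in double-gated over precursor cells (1.27 ± 0.49, 0.0574). Hapln2, a link protein at the nodes of Ranvier, had the same pattern, with 4.92 ± 0.58 in the second step and 1.05 ± 0.80, which was not called, in the first.

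Of 15 genes of myelin lipid synthesis, 11 were higher and 1 lower in mature cells than in precursors (median 2.71), beside 14.4% and 20.8% of all genes. In double-gated over precursor cells 12 were higher and 1 lower (14.1% and 17% of all genes), and in mature over double-gated cells 6 were higher and 2 lower (12.5% and 15.1%). Elovl7, which lengthens fatty acids, had 13.8 and 14.0 CPM in precursors, 321 and 314 CPM in double-gated cells and 211 and 253 CPM in mature cells, an early pattern like that of Mbp. Aspa, which frees acetate from N-acetylaspartate, had 12.7 and 5.66 CPM in precursors, 52.2 and 17.5 CPM in double-gated cells and 833 and 792 CPM in mature cells. Cers2, a ceramide synthase for very long chains, was higher by 1.85 ± 0.34 in the first step and by 2.06 ± 0.31 in the second. The gene that fell was Fads2, a fatty acid desaturase, by 3.87 ± 0.36 on the log2 scale in mature over precursor cells.

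Of 19 transcription factors and regulators, 5 were higher in mature cells than in precursors (Nkx6-2, Myrf, St18, Gpr37 and Gpr62) and 5 lower, Sox5 and Sox6 among them, beside 14.4% and 20.8% of all genes, with a median of -0.46. In double-gated over precursor cells 8 were higher and 5 lower (14.1% and 17% of all genes), and in mature over double-gated cells 4 were higher and 7 lower (12.5% and 15.1%). St18 had 16.9 and 30.2 CPM in precursors, 2108 and 2155 CPM in double-gated cells and 1953 and 2201 CPM in mature cells. Sox6, a repressor of differentiation, had 2171 and 1625 CPM in precursors, 1328 and 1568 CPM in double-gated cells and 4.96 and 6.41 CPM in mature cells, so the fall lay in the second step (-7.64 ± 0.37, adjusted p = 1.64e-07). Sox5 fell in both steps (-2.49 ± 0.36 and -4.14 ± 0.39).

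Of 9 genes for binding and transport of myelin messages, Qk (1.66 ± 0.27) and Kif1b (2.62 ± 0.31) were higher in mature cells than in precursors and Fyn (-1.58 ± 0.39) was lower, beside 14.4% and 20.8% of all genes, and the median was 0.55. Qk encodes the quaking RNA-binding protein, and Kif1b a motor needed in zebrafish for the transport of mbp messages into myelin. In double-gated over precursor cells 5 were higher and none lower (14.1% and 17% of all genes), and in mature over double-gated cells Kif1b was higher and Fyn lower (12.5% and 15.1%). Fyn, the kinase that acts in local translation of Mbp, had 404 and 341 CPM in precursors, 3842 and 4088 CPM in double-gated cells and 92.4 and 97.2 CPM in mature cells. Fyn and Bcas1 were markers used to name the committed cluster. Aspa, Hapln2, Nkx6-2, Gpr37, Ugt8a, Gjb1, Tspan2, Fa2h and Cryab were such markers for the oligodendrocyte-like clusters. The direction of these genes is no independent evidence, and the counts of their lists partly follow from the naming.

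The genes whose level over the 24 sums of mouse and class was most like that of the members, by Pearson's r of log2(CPM + 1) with the mean of the members' standardised values, were Qdpr (r = 0.986), Josd2 (0.977), Hapln2 (0.960) and Plekhh1 (0.960). The sums share libraries and the contrast of lineage with other cells, so r is a description. Qdpr, which regenerates tetrahydrobiopterin, had 63.5 and 49.4 CPM in precursors, 232 and 159 CPM in double-gated cells and 2054 and 2084 CPM in mature cells. Josd2 had 26.5 and 29.5 CPM in precursors, 247 and 163 CPM in double-gated cells and 436 and 384 CPM in mature cells. Among the members themselves, r with their own mean ran from 0.934 (Opalin) to 0.995 (Mobp).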

How the data were processed

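Thalamic cells of 2 mice were profiled, 1 library each. The deposited files hold counts, the number of distinct UMIs of each gene in each barcode, with no scaling by the authors. The submitters' processing notes list Cell Ranger 7.1.0 and the mm10 build; Seurat 5 is listed there without a stated use. The annotation, the intron setting and the strand setting are not given here. Cells with at least 500 genes, 1000 UMIs and at most 15% mitochondrial UMIs were kept. Scrublet, run per mouse, removed 181 and 262 doublets (2.84% and 2.78% of passing barcodes, where 6.31% and 9.69% were expected). Clustering used 2000 variable genes without the members and lists, 30 components, 15 neighbours and Leiden resolution 1 (scanpy 1.11.5, anndata 0.12.19, leidenalg 0.10.2, scipy 1.17.1, Python 3.11.15). The 33 clusters were named from marker lists, and those of mixed markers stayed unnamed and out of tests.

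Counts were summed per mouse and class, where both mice had 20 cells or more of it. Tests used edgeR 4.0.16 (R 4.3.3, limma 3.58.1; TMM; filterByExpr), by quasi-likelihood with robust dispersions. The class fit had 24 sums, 11 residual degrees of freedom and a biological coefficient of variation of 0.244. The fit of the split by gate had 10 sums, 4 degrees of freedom and 0.165. Each SE is the absolute log2 fold change over the square root of the test's F statistic. It rests on the spread shared by all sums of a fit, not on the 2 groups compared alone. The model held class and mouse, the mouse as a block, since each class was taken from the same 2 animals. Clusters and tests used the same cells, which makes p-values somewhat too small, and the spread comes from 2 animals only. CPM is the count per 1000000 UMIs of a sum. Alternatives were DESeq2 1.42.0 with its size factors or Wald test, library size only, no filter, no block, each mouse alone, other cell filters, another resolution, doublets kept and other gates. The code was tested on simulated data.

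The members and lists were chosen with earlier results of these data known. From each list, up to 4 called genes were named by the largest absolute log2 fold change of mature over precursor cells, if the direction was shared by both mice and the higher group reached 50 CPM. The genes most like the members were the 5 of highest r. Some genes that these rules name are not reported here. List genes named without values (Cd9, Nfasc, Bcas1, Sirt2 and some regulators) were picked after their values were seen. Of 32285 identifiers, 32235 were matched in GENCODE vM21.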

Additional observations from a re-analysis of the deposited data

How the results depend on the processing

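The counts of members called in mature over precursor cells (9), mature over the classes outside the lineage (9) and Enpp6-gated over Gpr17-gated cells (9) stayed within 1.5 times under each alternative that gave a value, and so did mature over double-gated (5 to 7) and Enpp6-only over double-gated cells. In each mouse alone, with no test, the first 3 had 9 members at or past a log2 fold change of 1 in either mouse, as did committed over precursor and Gpr17-only over precursor cells. Mature over committed had 1 called, and 0 with no replicate block and with cells over both gates left out, 2 with no filter on low counts, 6 with the committed gate reduced to double-gated cells or to the committed cluster, and 2 in each mouse alone. Precursor against the classes outside the lineage had 4 called lower, and 2 with the looser cell filter and with no replicate block, 0 with doublets kept, with gates of 5 and 10 UMIs and with gates of 1 and 3 UMIs, and 1 to 4 in a mouse alone. Under the last gates the 9 turned to higher, by 3.72 (Ermn), 3.83 (Mal), 3.21 (Cldn11), 3.41 (Mag), 3.28 (Mobp), 3.05 (Cnp), 3.46 (Mog), 2.94 (Mbp) and 3.87 (Opalin), and double-gated over precursor cells had 2 called higher in place of 9, with Ermn at -2.28, Mal at -2.44, Mobp at -0.15, Mog at -0.0143 and Opalin at -0.93. Both gates were lowered together there. Mature over Enpp6-only cells had 0 called, and 1 with the 5% mitochondrial limit, doublets kept, both-gate cells left out, no lineage restriction, DESeq2's Wald test and in each mouse alone. Gpr17-only over precursor cells had 1 called, and 5 with the 5% limit, 7 without lineage restriction, 8 without the filter, 9 by the Wald test and 0 with the looser filter, doublets kept, either other gate or no replicate block, and Mag was at -0.33 with gates of 1 and 3 UMIs. The 81 pairs outside the lineage had 11 called higher, and 4 with the 5% limit, where smooth muscle-like and fibroblast-like cells were too few and gave no value, and 7 at resolution 2 or with gates of 5 and 10 UMIs. In a mouse alone 14 to 19 were past a log2 fold change of 1. Without mouse 1 the border macrophage-like values were Ermn -0.67, Mal -1.05, Cldn11 -0.16 and Mog -0.75, and without mouse 2 they were 1.77, 2.17, 1.57 and 1.79, and with the looser filter blood-like cells turned to 1.34 (Mag) and 1.01 (Mobp). Thinning to 500 and 2000 UMIs gave shares with a UMI of 87.8% and 99.8% for Mbp in mature cells, 5.84% and 18.3% for Mbp outside the lineage and 20.6% and 55.4% for Mal in endothelial-like cells, in place of 98.0%, 10.4% and 35.7%, and over single mice 97.8% to 98.1%, 8.37% to 12.4% and 30.7% to 40.7%. Without the block, 8 members were called in double-gated over precursor and in Enpp6-gated over Gpr17-gated cells, and 9 in mature over precursor cells. Where no cause is named, the cause was not tested. The contrast of Enpp6-gated with Gpr17-gated cells gave no value with both-gate cells left out, for too few cells. Genes called between mature and committed cells were 1746 in the main setting, 693 with both-gate cells left out, 3716 with double-gated cells as committed and 4065 inside the committed cluster. Between committed and precursor cells they were 4394 and, with gates of 1 and 3 UMIs, 2177. Between mature and Enpp6-only cells they were 559, 1097 without lineage restriction and 261 with no block, and between Gpr17-only and precursor cells 6 and 0 to 180. With 2 animals and 42 double-gated cells in mouse 1, a difference near 1 on the log2 scale, as for Mag and Cldn11, was not resolved.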
